A study of Mus musculus with 114 samples.

Results

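The 8 genes described here encode acute phase proteins that fat makes besides the liver, namely the serum amyloid A genes Saa1, Saa2 and Saa3, the orosomucoid genes Orm1 and Orm2, lipocalin 2 (Lcn2), haptoglobin (Hp) and Serpina3n. They were chosen by gene symbol, and all 8 of 8 were found among the 29132 genes with values. RNA-seq was performed on adipocytes isolated from perigonadal fat (PGWAT) of 38 male C57BL/6J mice, with no transgene or deletion in any group. From 6 weeks of age the mice received chow as control diet (CD) or a diet high in fat (HFD) for 8 weeks (6 CD and 6 HFD mice), 20 weeks (6 and 6) or 34 weeks (8 and 6), and all were fasted before harvest. The paper names alternative formulas for the control diet and does not state which mice received which. Adipocytes were taken as the floating fraction of the pad once digested with collagenase. They were not sorted, and in such bulk samples fewer cells of a type and less RNA per cell cannot be told apart. Values are given as CPM, the counts of a gene per 1000000 reads on all genes of that mouse. The mice had 9275711 to 15480388 such reads, so that 1 read was worth 0.0646 to 0.108 CPM.

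Acute phase proteins are secreted proteins whose plasma levels change sharply with infection, injury and inflammation. Their genes are switched on mainly in hepatocytes by interleukin 6, interleukin 1 and tumor necrosis factor, through STAT3, C/EBP and NF-kB factors that bind close to the start of transcription. Adipocytes make several of them as well, and Saa3, Lcn2, Hp and Orm1 are known products of mouse fat that have been studied in obesity. Saa1 and Saa2 are the serum amyloid A forms carried on high density lipoprotein in plasma, whereas Saa3 is made mostly outside the liver.

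The serum amyloid A genes and Orm2 are shown here by the bases before their start of transcription, since the comparisons below turn on how Saa1, Saa2 and Saa3 moved against each other and on Orm2, which moved the other way at 8 weeks. Reference sequences of RefSeq (GRCm38.p6) were found for 6 of the 8 genes, as 250 bases before the RefSeq start. The GENCODE annotation starts some genes farther upstream, so that 43 of these bases for Saa2, 24 for Saa3 and all 250 for Lcn2 fall inside the gene, and only the bases outside the gene are printed. Letters in capitals mark matches to the C/EBP motif TTGCNNAA on either strand, and each run reads 5′ to 3′ toward the gene. The printed regions are chr7:46742981-46743230 (minus strand), chr7:46751583-46751789 (plus), chr7:46715701-46715926 (minus) and chr4:63362199-63362448 (plus) in the order of the lines.
Saa1: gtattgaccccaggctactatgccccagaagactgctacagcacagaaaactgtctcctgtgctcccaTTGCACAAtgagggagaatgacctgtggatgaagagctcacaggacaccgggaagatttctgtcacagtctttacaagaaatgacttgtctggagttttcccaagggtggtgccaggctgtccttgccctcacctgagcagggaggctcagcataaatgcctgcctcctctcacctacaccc
Saa2: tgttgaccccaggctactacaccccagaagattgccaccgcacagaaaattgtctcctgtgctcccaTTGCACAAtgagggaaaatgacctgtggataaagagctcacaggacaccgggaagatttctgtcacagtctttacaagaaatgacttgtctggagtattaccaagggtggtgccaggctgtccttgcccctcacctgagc
Saa3: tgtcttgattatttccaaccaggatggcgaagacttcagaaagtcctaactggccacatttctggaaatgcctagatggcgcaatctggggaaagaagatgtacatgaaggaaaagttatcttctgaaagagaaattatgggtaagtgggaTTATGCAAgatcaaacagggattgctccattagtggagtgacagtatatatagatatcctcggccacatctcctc
Orm2: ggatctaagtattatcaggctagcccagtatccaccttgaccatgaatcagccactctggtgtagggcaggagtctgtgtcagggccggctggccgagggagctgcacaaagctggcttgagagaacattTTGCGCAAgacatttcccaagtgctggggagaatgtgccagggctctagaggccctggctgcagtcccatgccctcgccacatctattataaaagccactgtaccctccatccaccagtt

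The 250-base regions of Saa1, Saa2, Saa3, Orm2 and Lcn2 each held 1 match to TTGCNNAA, a motif present in 9.56% of the 32851 upstream regions of the same length. None of the 5 held TTCNNNGAA (STAT, 7.02% of all regions) or the narrow NF-kB pattern that was searched (1.41%), on both strands. The region of Serpina3n held 1 match to this NF-kB pattern and none to the other motifs. Looser forms of the NF-kB site were not searched for, so their presence in these regions was not tested. No match overlapped another. The Saa1 and Saa2 regions were identical at 238 of 251 aligned positions (94.8%), and Saa1 and Saa3 at 145 of 276 (52.5%). A match is a description of these letters only, and no binding was measured.

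The genes lie on 5 chromosomes (GRCm38, GENCODE annotation). Saa3 (chr7:46711998-46715700), Saa1 (chr7:46740497-46742980) and Saa2 (chr7:46751790-46754313) form a cluster, as do Orm1 (chr4:63344560-63348163) and Orm2 (chr4:63362449-63365878). Lcn2 is at chr2:32384633-32388252, Hp at chr8:109575128-109579172 and Serpina3n at chr12:104406729-104414329. Reads of near identical genes can be shared or lost in counting. Of the windows of 75 bases in the Saa1 transcript 4.67% also occurred in Saa2, and of those in Orm1 13.8% also occurred in Orm2, so the values of both pairs are uncertain. Orm3 shared 0% of such windows with Orm1 and 0.143% with Orm2. Serpina3n also belongs to a family of similar genes, for which shared windows were not counted.

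Levels per kilobase of exon differed widely between the members. Hp, whose product binds free hemoglobin, had a mean level of 4501 CPM per kilobase over the 38 mice and was the highest. Serpina3n, a secreted inhibitor of serine proteases, had 484 CPM per kilobase, and Orm1, a carrier of small lipophilic molecules, had 268. Saa3 and Lcn2, a protein that binds bacterial siderophores, had 81.6 and 33.6. Orm2, Saa1 and Saa2 were the lowest, with 4.94, 3.42 and 2.33 CPM per kilobase. The order of these 3, and that of Orm1 and Saa3, depends on the length, which was the union of all annotated exons. This was 775 bases for Orm1 and Orm2 but 2478 for Saa1, 2518 for Saa2, 2606 for Saa3 and 2623 for Lcn2. For Saa1 and Saa2 that is nearly the whole gene, so they are understated, and Saa3 and Lcn2 may be as well. In plain CPM the means of Orm2, Saa1 and Saa2 were 3.83, 8.48 and 5.87, and those of Saa3 and Orm1 were 213 and 207. The means of Saa3 and Lcn2 include mouse 6 of the 8 week CD group, at 2494 and 1551 CPM. Together the 8 genes took a median of 1.06% of all reads in 8 week CD mice and 0.847% in 8 week HFD mice, 0.818% and 0.50003% at 20 weeks and 0.982% and 0.653% at 34 weeks, and Hp made up most of this.

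Most of the 8 genes were lower in HFD than in CD mice at 20 and 34 weeks, and the orosomucoid genes Orm1 and Orm2 were higher in HFD mice at 8 weeks. Differences were tested with limma on log2(CPM + 1) over all genes with a mean above 2.0 in all mice, a filter that 5 of the 8 genes passed (Saa3, Orm1, Lcn2, Hp and Serpina3n). At 8 weeks 2 of the 5 passed the adjusted threshold of 0.05, with Orm1 higher and Serpina3n lower, where 44.9% of all 10343 genes tested passed, 29.8% higher and 15.1% lower. At 20 weeks 4 of 5 passed, all lower in HFD, where 57.0% of all genes passed and 18.7% were lower. At 34 weeks 5 of 5 passed, all lower, where 43.2% passed and 15.7% were lower. The median difference of the 5 genes (HFD minus CD, log2 scale) was -0.49, -1.31 and -0.83 at the 3 times, beside 0.11, 0.14 and 0.07 over all genes tested. Saa1, Saa2 and Orm2 lay below the filter, with means of 1.94, 1.72 and 1.98, and were compared by an exact permutation test at each time.

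**Figure D1:**
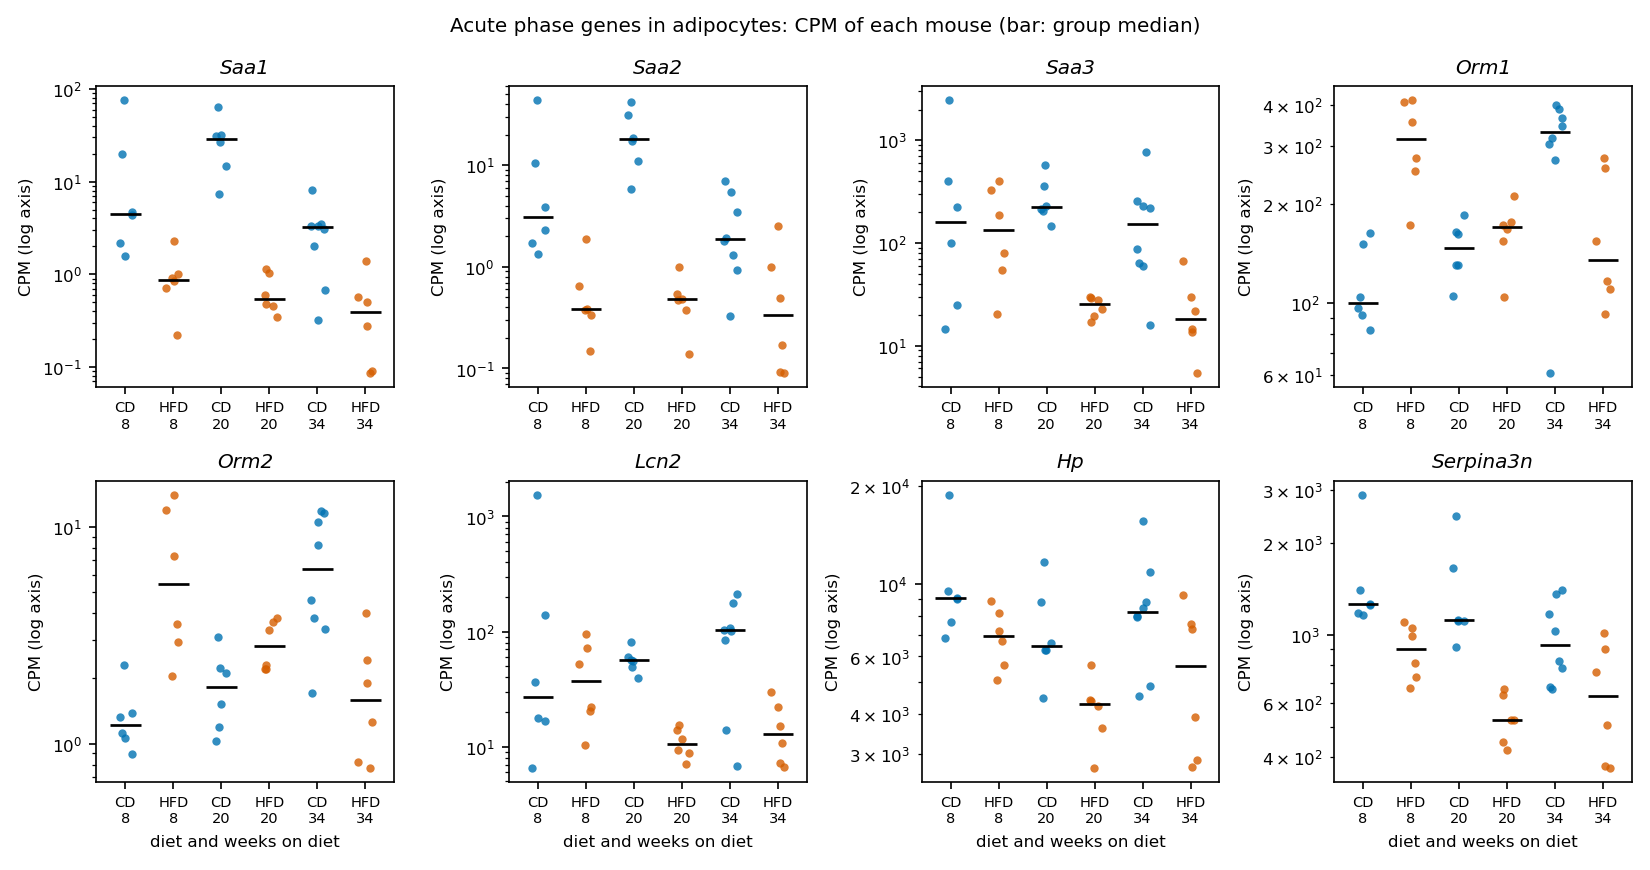
CPM of the 8 genes in each of the 38 mice (log axis), by diet and weeks on diet, with CD in blue, HFD in orange and a bar at the group median. At 20 weeks every HFD mouse lies below every CD mouse for Saa1, Saa2, Saa3, Lcn2 and Serpina3n, and at 8 weeks mouse 6 of the CD group is the highest point for Saa1, Saa2, Saa3, Lcn2, Hp and Serpina3n.

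The groups were fully separate for 2 of the 8 genes at 8 weeks, where every HFD mouse was below every CD mouse for Serpina3n (7.14% of all genes tested) and above for Orm1 (15.7%). At 20 weeks every HFD mouse was below every CD mouse for 5 of 8 genes, where 11.1% of all genes tested did the same and 26.1% lay fully above. At 34 weeks none of the 8 was fully separate (0.986% of all genes tested below and 1.47% above).

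Saa1 had the widest diet gap of the 8 genes on the log2 scale at 8 and 20 weeks. In 8 week CD mice it ranged from 1.59 to 76.6 CPM with a median of 4.50, and in 8 week HFD mice from 0.221 to 2.31 with a median of 0.874. At 20 weeks CD mice ranged from 7.42 to 64.1 CPM (median 28.8) and HFD mice from 0.345 to 1.13 (median 0.538). The lowest 20 week CD mouse was thus far above the highest HFD mouse, which held 16 reads of the gene. At 34 weeks CD mice ranged from 0.325 to 8.04 CPM (median 3.20) and HFD mice from 0.0857 to 1.39 (median 0.388), and the groups overlapped. The difference of HFD minus CD in log2(CPM + 1) was -2.17 at 8 weeks (exact permutation test, two-sided p = 0.00649), -3.93 at 20 weeks (exact p = 0.00216, the smallest that 6 against 6 mice can give) and -1.28 at 34 weeks (exact p = 0.00733). The ratio of mean CPM at 20 weeks was 43.3 in favor of CD. With no filter on low values the adjusted p of limma was 0.00362, 1.13e-06 and 0.0638 at the 3 times, so the 34 week difference did not pass with limma over all 21166 genes with a read (24.3%, 35.7% and 25.6% of which passed). With edgeR over the same genes it did (-2.64, adjusted p = 0.0176).

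Saa2 followed Saa1 closely. CD and HFD medians were 3.09 and 0.383 CPM at 8 weeks, 18.1 and 0.481 at 20 weeks and 1.87 and 0.334 at 34 weeks. The highest 20 week HFD mouse reached 0.993 CPM, and the lowest 20 week CD mouse had 5.81. The difference was -1.98 at 8 weeks (exact p = 0.00649), -3.65 at 20 weeks (exact p = 0.00216) and -1.04 at 34 weeks (exact p = 0.0333). The call at 34 weeks was lost without CD mouse 1, 3 or 5 or HFD mouse 1, 2, 3 or 4 (exact p = 0.0571 to 0.0684) and with limma on all genes with a read (adjusted p = 0.117). Saa1 made up a median of 59.8% and 64.2% of the reads of both genes in 8 week CD and HFD mice, 58.8% and 53.9% at 20 weeks and 50.5% and 43.4% at 34 weeks, with summed reads of 35 and 53 behind the last value.

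Saa3, the serum amyloid A gene most expressed here, was lower in HFD at the later times. At 8 weeks CD mice ranged from 14.4 to 2494 CPM (median 161) and HFD mice from 20.2 to 406 (median 134), and the groups overlapped throughout. At 20 weeks CD mice ranged from 145 to 581 CPM (median 222) and HFD mice from 16.9 to 29.8 (median 25.6). At 34 weeks CD mice ranged from 15.999 to 776 CPM (median 153) and HFD mice from 5.39 to 66.3 (median 18.2). The HFD mice at 20 weeks were thus both low and close to each other, with 1.76 times between the highest and the lowest mouse against 20.1 times at 8 weeks. On the log2 scale HFD differed from CD by -0.32 (SE 0.87, limma adjusted p = 0.786) at 8 weeks, -3.38 (SE 0.87, adjusted p = 0.00133) at 20 weeks and -2.63 (SE 0.81, adjusted p = 0.00968) at 34 weeks. The 8 week value changed sign without CD mouse 6 (0.50) or HFD mouse 2 (0.17) and with array weights (0.76). With macrophage markers as a covariate it was -2.04 and passed (limma adjusted p = 0.0314). With array weights the 34 week call was lost (limma adjusted p = 0.0644).

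Lcn2 had a similar course. At 8 weeks CD mice ranged from 6.53 to 1551 CPM (median 27.2) and HFD mice from 10.3 to 94.6 (median 37.0). At 20 weeks CD mice ranged from 39.5 to 81.6 CPM (median 56.1) and HFD mice from 7.14 to 15.4 (median 10.6), with no overlap. At 34 weeks CD mice ranged from 6.77 to 213 CPM (median 103) and HFD mice from 6.65 to 30.1 (median 13.0). CD mice 4 and 6 at 34 weeks, with 14.0 and 6.77 CPM, lay within the HFD range. The log2 difference was -0.55 (SE 0.82, limma adjusted p = 0.601) at 8 weeks, -2.28 (SE 0.82, adjusted p = 0.0182) at 20 weeks and -2.24 (SE 0.77, adjusted p = 0.0187) at 34 weeks. Without CD mouse 6 the 8 week value was 0.42, and edgeR on the whole reads gave -2.84 with that mouse included (adjusted p = 0.00894).

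Hp was high in every mouse, and its diet differences at 20 and 34 weeks were smaller than those of Saa1, Saa2 and Saa3. CD mice ranged from 6843 to 18883 CPM (median 9050) and HFD mice from 5074 to 8900 (median 6941) at 8 weeks. At 20 weeks the ranges were 4472 to 11736 (median 6447) and 2724 to 5654 (median 4296), and at 34 weeks 4549 to 15646 (median 8238) and 2738 to 9287 (median 5601). The groups overlapped at all 3 times. The log2 difference was -0.49 (SE 0.30, limma adjusted p = 0.178), -0.79 (SE 0.30, adjusted p = 0.0242) and -0.69 (SE 0.28, adjusted p = 0.0455) at 8, 20 and 34 weeks. The 20 week call was lost without CD mouse 1 or 5 or HFD mouse 5 (adjusted p = 0.053 to 0.0718), and the 34 week call without CD mouse 1, 2, 3, 7 or 8 or HFD mouse 2, 3 or 4 (0.0568 to 0.163). With no filter on low values both were lost (adjusted p = 0.0961 and 0.151).

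Serpina3n was lower in HFD at every time. At 8 weeks CD mice ranged from 1166 to 2889 CPM (median 1261) and HFD mice from 670 to 1103 (median 902), with no overlap. At 20 weeks the ranges were 915 to 2457 (median 1118) and 420 to 669 (median 528), again with no overlap. At 34 weeks they were 665 to 1405 (median 928) and 367 to 1015 (median 634) and overlapped. The log2 difference was -0.71 (SE 0.26, limma adjusted p = 0.0246), -1.31 (SE 0.26, adjusted p = 6.83e-05) and -0.65 (SE 0.24, adjusted p = 0.0280). The 8 week call was lost without CD mouse 6 (-0.51, adjusted p = 0.0968) or HFD mouse 2 (adjusted p = 0.0532), and the 34 week call without CD mouse 1 or 3 or HFD mouse 2, 3 or 4 (0.0574 to 0.105). The 20 week call held without any 1 mouse.

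**Figure D2:**
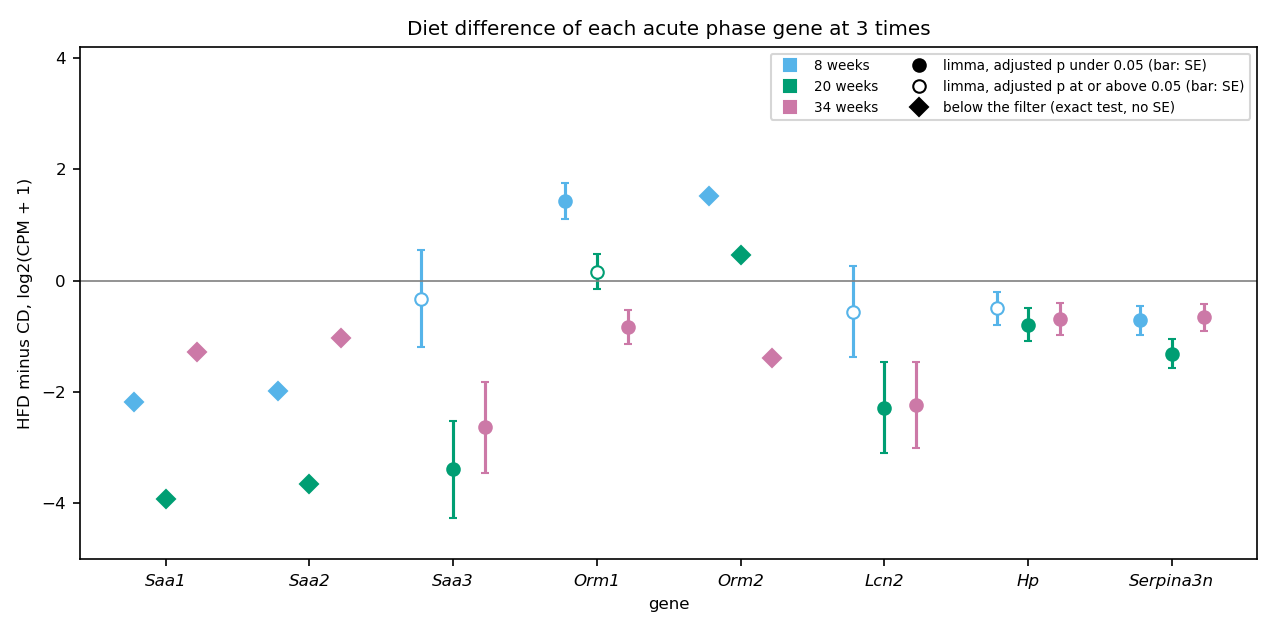
Difference of HFD minus CD in log2(CPM + 1) for each gene at 8, 20 and 34 weeks, with circles and SE bars for the 5 genes tested with limma (filled where the adjusted p is under 0.05) and diamonds for the 3 genes below the filter. Saa1, Saa2 and Saa3 are the lowest at 20 weeks, and Orm1 moves from 1.43 at 8 weeks to -0.83 at 34 weeks.

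Orm1 rose with HFD at 8 weeks and was lower with HFD at 34 weeks. At 8 weeks CD mice ranged from 82.4 to 163 CPM (median 99.97) and HFD mice from 173 to 415 (median 315), with no overlap. At 20 weeks the ranges were 104 to 184 (median 146) and 104 to 211 (median 170). At 34 weeks CD mice ranged from 60.9 to 399 (median 331) and HFD mice from 92.1 to 276 (median 135), and 7 of the 8 CD mice were at 271 or more. The log2 difference was 1.43 (SE 0.32, limma adjusted p = 0.000732), 0.17 (SE 0.32, adjusted p = 0.680) and -0.83 (SE 0.30, adjusted p = 0.0247). With TMM factors, which moved the median of all genes at 20 weeks from 0.136 to -0.0521, the 20 week value was -0.030. Without CD mouse 5, the mouse at 60.9 CPM, the 34 week difference was -1.14 (adjusted p = 0.000124), and without CD mouse 3 or HFD mouse 2, 3 or 4 the call was lost (0.0507 to 0.0859). CD mouse 5 also had the highest macrophage sum (12194 CPM), the lowest adipocyte sum (27404 CPM) and the highest progenitor and fibroblast sum of its group (2185 CPM, against 388 to 598 in the other mice), and their part in its Orm1 level was not tested.

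Orm2 moved in the same directions at a far lower level. At 8 weeks CD mice ranged from 0.897 to 2.30 CPM (median 1.22) and HFD mice from 2.05 to 14.1 (median 5.44). At 20 weeks the ranges were 1.02 to 3.09 (median 1.82) and 2.20 to 3.80 (median 2.82), and at 34 weeks 1.71 to 11.9 (median 6.40) and 0.771 to 3.99 (median 1.58). The groups overlapped at every time. The difference in log2(CPM + 1) was 1.53 (exact p = 0.00433), 0.47 (exact p = 0.0303) and -1.38 (exact p = 0.00733). The 20 week call was lost without CD mouse 1, 4 or 5 or HFD mouse 3, 5 or 6 (exact p = 0.0563 to 0.0606) and with limma on all genes with a read (adjusted p = 0.335), whereas the 8 and 34 week calls held there (adjusted p = 0.00177 and 0.00234). Orm2 took 0.532% to 3.82% of the reads of both genes in the 38 mice, so few that some of them could be reads of Orm1 from shared stretches. The share was not constant, with group medians from 1.03% in 34 week HFD to 2.64% in 34 week CD mice. How much of the Orm2 value came from Orm1 was not tested.

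The change of the diet difference between times was tested as an interaction. For Orm1 it fell by 2.26 on the log2 scale from 8 to 34 weeks (SE 0.44, limma adjusted p = 0.000344), the 1 call among 15 such tests of the 5 genes. Of all genes 28.8% passed in this comparison, 4.49% from 8 to 20 weeks and 10.5% from 20 to 34 weeks. From 8 to 20 weeks 0 of 5 members passed with limma, 2 had an unadjusted p under 0.05 and 0 passed with edgeR. These were Saa3 (-3.06, SE 1.23, adjusted p = 0.114) and Orm1 (-1.26, SE 0.45, adjusted p = 0.0836), so a difference between 8 and 20 weeks was not shown for Saa3 although it passed at 20 weeks and not at 8 weeks. From 20 to 34 weeks 0 passed, and Orm1 alone had an unadjusted p under 0.05 (-0.998, SE 0.44, adjusted p = 0.134). Without CD mouse 5 at 34 weeks Orm1 passed in both of these (adjusted p = 0.0179 and 0.00761), and without CD mouse 6 at 8 weeks Saa3 and Lcn2 passed from 8 to 34 weeks (-3.13 and -2.66, adjusted p = 0.0305 and 0.0296).

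Age within a diet was compared next. From 8 to 20 weeks on CD 0 of the 5 genes passed with limma, 0 had an unadjusted p under 0.05 and 0 passed with edgeR, where 3.58% of all genes passed. From 8 to 34 weeks on CD Orm1 rose by 1.296 (SE 0.30, limma adjusted p = 0.000377) and Serpina3n fell by 0.60 (SE 0.24, adjusted p = 0.0305), 2 of 5 where 64.7% of all genes passed. The Serpina3n call was lost without 8 week mouse 6 (adjusted p = 0.142) or 34 week mouse 2, 4, 5 or 6 (0.0502 to 0.063). From 8 to 34 weeks on HFD Orm1 fell by 0.96 (SE 0.32, adjusted p = 0.0123) and Saa3 by 2.52 (SE 0.87, adjusted p = 0.0153), both of which held without any 1 mouse (52.5% of all genes passed and 20.8% were lower). From 8 to 20 weeks on HFD 4 of 5 were lower, namely Saa3, Orm1, Hp and Serpina3n, where 36.5% of all genes passed and 15.3% were lower. Their adjusted p ranged from 0.0279 to 0.0497, and the count fell to between 0 and 2 without HFD mouse 1, 3, 4 or 6 at 8 weeks or any HFD mouse at 20 weeks. Time on diet, age, any difference between the harvests and, on CD, any difference in control formula cannot be told apart.

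The order of the 6 groups differed between the genes. By mean log2(CPM + 1) 20 week CD mice were highest for Saa1, Saa2 and Saa3, 34 week CD mice for Lcn2 and Orm2, 8 week CD mice for Hp and Serpina3n and 8 week HFD mice for Orm1. The lowest group was 34 week HFD for Saa1 and Saa3, 20 week HFD for Saa2, Lcn2, Hp and Serpina3n and 8 week CD for Orm1 and Orm2. Most neighbors in these orders lay closer than the larger SD of the pair. Only 4 steps exceeded it, namely from 34 week CD down to 34 week HFD for Saa2 (1.04 against an SD of 0.88), from 8 week HFD down to 20 week HFD for Saa3 (2.22 against 1.64), from 20 week HFD down to 20 week CD for Orm2 (0.47 against 0.38) and from 8 week HFD down to 34 week HFD for Lcn2 (1.31 against 1.19).

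Mouse 6 of the 8 week CD group stood apart. It was the highest of all 38 mice for Saa1, Saa2, Saa3, Lcn2, Hp and Serpina3n. Lcn2 was 1551 CPM in this mouse, 11.1 times the next CD mouse of its group, and Saa3 was 2494 CPM, 6.14 times the next. Hp and Serpina3n were 1.98 and 2.06 times the next mouse. Orm1 did not share this, with 91.8 CPM (rank 36 of 38). In the same mouse the summed macrophage markers (1523 CPM) and neutrophil markers (21.8 CPM) were the highest of its group and the summed adipocyte markers (34038 CPM) the lowest. Their part in these levels was not tested.

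Among mice of the same group the members varied in pairs. Deviations from the group means of log2(CPM + 1) over the 38 mice gave a Pearson r of 0.94 for Saa1 and Saa2 (0.91 without mouse 6 of the 8 week CD group), 0.90 for Hp and Serpina3n (0.88 without it) and 0.85 for Saa3 and Lcn2 (0.79 without it). For Lcn2 and Hp r was 0.70, for Orm1 and Orm2 0.67 and for Saa1 and Saa3 0.63 (0.47 without mouse 6). For Orm1 and Lcn2 r was 0.12 (0.24 without mouse 6, Spearman 0.38). For Orm1 and Saa1 it was -0.19 (-0.18 without mouse 6, Spearman -0.052). These values share libraries and are descriptions.

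**Figure D3:**
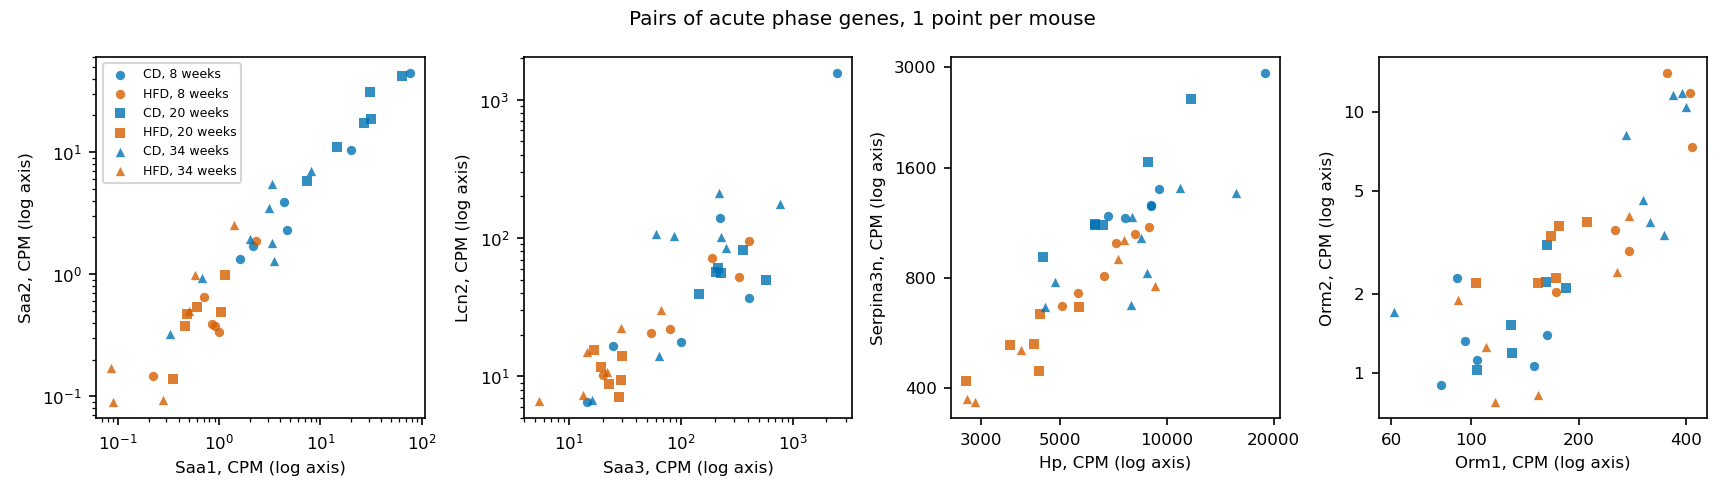
CPM of 4 pairs of genes against each other, 1 point per mouse (log axes), with CD in blue and HFD in orange and symbols for 8, 20 and 34 weeks. The Saa1 and Saa2 points lie along a line over all groups, from 0.0857 to 76.6 CPM of Saa1, whereas the Orm1 and Orm2 points scatter more.

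The genes most like each member by the same measure were then listed, members included, among the genes that passed the filter. Saa1, Saa2 and Orm2 lay below it and could not be listed. Hp was most like Lrg1, an acute phase glycoprotein (r = 0.92), then Serpina3n (0.90) and Rarres2, the adipokine chemerin (0.83). Serpina3n was most like Hp (0.90), the extracellular superoxide dismutase Sod3 (0.86) and its relative Serpina3m (0.85). Saa3 was most like Lcn2 (0.85), the chemokine receptor Ccr1 (0.79) and Timp1, an inhibitor of metalloproteinases (0.78). Lcn2 was most like Saa3, AW112010 (0.82) and Tmem176a (0.79). Apart from each other (0.94), Saa1 and Saa2 were most like Pde5a (0.66 and 0.71), Timp1 (0.63 and 0.62) and Saa3 (0.63 and 0.62). Their r with Pde5a, Timp1 and Saa3 was 0.41 to 0.51 without mouse 6. Orm1 was most like Gstm2 (0.87), Lrpap1 (0.86) and Emc2 (0.86), and Orm2 most like Npc2 (0.82), Hist1h2bc (0.79) and Sdsl (0.78).

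Other acute phase genes showed both directions, with more lower than higher in HFD. Of 30 listed genes 18 were tested. At 8, 20 and 34 weeks 5, 11 and 8 of them were lower and 3, 3 and 1 higher, where 15.1%, 18.7% and 15.7% of all genes tested were lower and 29.8%, 38.3% and 27.5% higher. The median difference was -0.59, -0.99 and -0.52 (all genes tested 0.11, 0.14 and 0.07). Itih4, an inter-alpha-trypsin inhibitor heavy chain, was lower by limma at all 3 times (-2.92, -3.30 and -1.19, adjusted p = 9.56e-07, 4.03e-08 and 0.00686). Orm3, the third orosomucoid gene, did not follow Orm1 at 8 weeks (0.25, adjusted p = 0.595) and was lower at 20 (-1.66, adjusted p = 0.000313) and 34 weeks (-2.71, adjusted p = 1.68e-06). Serpina3f was lower at 8 and 20 weeks (-2.55 and -1.82, adjusted p = 6.77e-06 and 0.000134), whereas Serping1, the C1 inhibitor, was higher at both (1.79 and 2.22, adjusted p = 0.00643 and 0.000545). Lrg1, the gene most like Hp, passed at 34 weeks (-0.74, adjusted p = 0.0157) and had -0.24 and -0.32 at 8 and 20 weeks.

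Negative acute phase genes, which fall in plasma during inflammation, were also followed. Of 7 listed genes 3 were tested, of which 1, 3 and 3 were lower at 8, 20 and 34 weeks, where 15.1%, 18.7% and 15.7% of all genes tested were lower. Transferrin (Trf) was lower with limma at all 3 times (-0.82, -1.29 and -0.91, adjusted p = 0.00276, 6.54e-06 and 0.000637). Albumin (Alb) was lower at 20 (-2.56, adjusted p = 2.76e-07) and 34 weeks (-2.14, adjusted p = 1.26e-05), and so was Rbp4, the retinol carrier (-1.53 and -1.74, adjusted p = 6.16e-05 and 3.69e-05). Thus 4 of 5 tested members at 20 weeks and 5 of 5 at 34 weeks were lower beside genes known for the opposite response in plasma, whose list medians were -1.53 and -1.74.

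Among the cytokines that induce acute phase genes and their receptors, some were higher and some lower. Of 14 genes tested of 15 listed, 4, 6 and 6 were higher at 8, 20 and 34 weeks, where 29.8%, 38.3% and 27.5% of all genes tested were higher. At the same times 5, 4 and 0 were lower, where 15.1%, 18.7% and 15.7% of all genes were lower. Il1b was higher with limma at all 3 times (2.04, 4.23 and 2.27, adjusted p = 0.0499, 9.10e-05 and 0.0213). At 20 weeks it ranged from 14.3 to 169 CPM in CD and from 306 to 1564 in HFD mice. Tnf was also higher at all 3 times (1.71, 2.68 and 1.72, adjusted p = 0.0320, 0.000766 and 0.0226), and Il1a at 20 weeks (2.49, adjusted p = 0.00362). Il1r1, the receptor of interleukin 1, was lower at 8 and 20 weeks (-1.93 and -0.95, adjusted p = 9.65e-05 and 0.0249). Il6, chosen after its values were seen, had medians of 228 CPM in CD and 139 in HFD mice at 20 weeks but 7.23 to 17.9 in the other 4 groups, and its diet difference passed at 34 weeks (1.28, adjusted p = 0.0133).

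Of the 15 transcription factors and feedback genes tested, 8 were lower and 1 higher at 8 weeks, 5 and 1 at 20 weeks and 2 and 3 at 34 weeks, beside 15.1%, 18.7% and 15.7% of all genes lower and 29.8%, 38.3% and 27.5% higher. Stat3, the factor through which interleukin 6 acts, was lower with limma at 8 and 20 weeks (-1.13 and -1.10, adjusted p = 3.13e-05 and 1.24e-05) and had -0.24 at 34 weeks (adjusted p = 0.282). The glucocorticoid targets Fkbp5 and Tsc22d3 moved in opposite directions, with Fkbp5 at -1.09 and -0.996 (adjusted p = 0.00839 and 0.0109) and Tsc22d3 at 0.80 and 0.87 (adjusted p = 0.00275 and 0.000698) at 8 and 20 weeks. Nfkbia, the inhibitor of NF-kB, was higher at 34 weeks (0.84, adjusted p = 0.00942). Among receptors and partners 9 of 13 listed genes were tested, of which 1, 2 and 4 were higher and 2, 2 and 1 lower, beside the same shares of all genes. Mmp9, the protease whose protein binds lipocalin 2, was lower at 20 weeks with limma (-1.81, adjusted p = 1.79e-05). P2rx7 was higher at 20 and 34 weeks (1.58 and 1.45, adjusted p = 0.00112 and 0.00253), Tlr2 at 34 weeks (1.67, adjusted p = 0.00236), and Hmox1, which degrades heme, was lower at 8 weeks (-1.36, adjusted p = 0.00256).

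**Figure D4:**
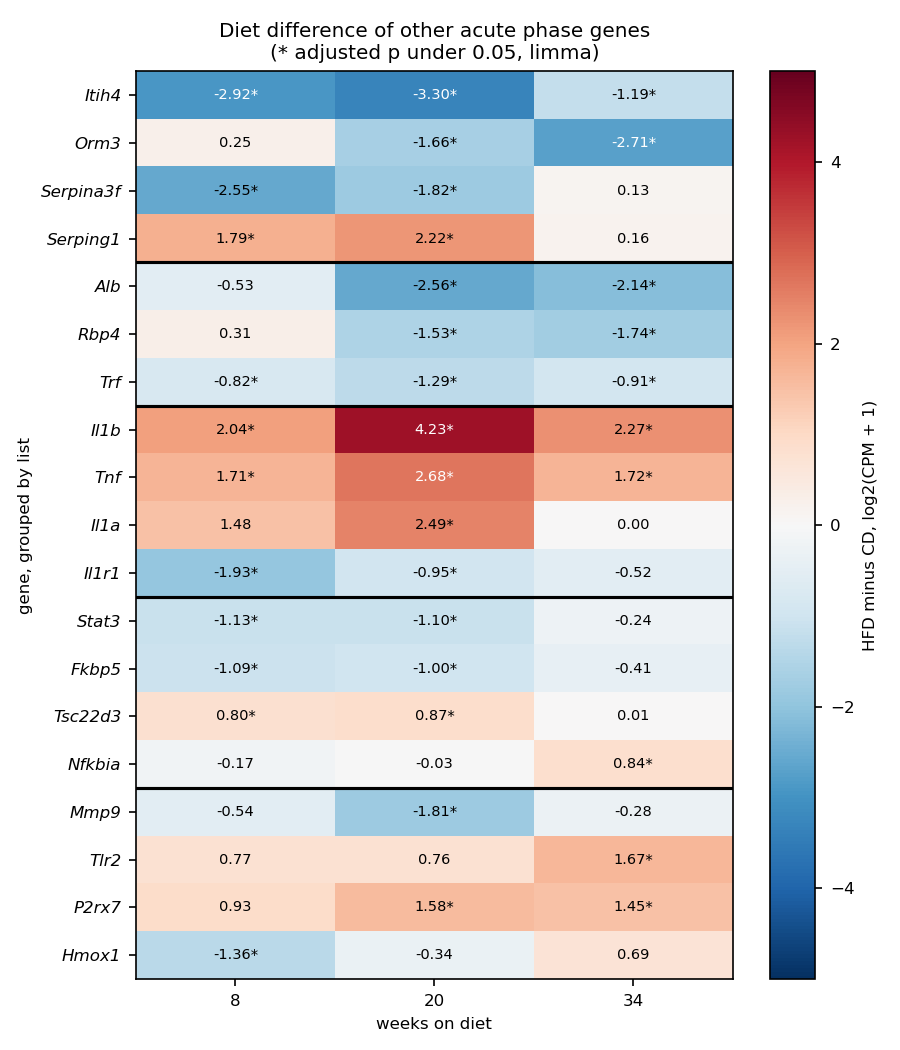
Diet difference of HFD minus CD in log2(CPM + 1) at 8, 20 and 34 weeks for the 4 genes of each list with the largest called change (3 for negative acute phase genes), with lower values in blue, higher values in red and an asterisk where the limma adjusted p is under 0.05. From top to bottom the blocks are other acute phase genes, negative acute phase genes, cytokines and receptors, transcription factors and feedback genes, and receptors and partners, and Il1b at 20 weeks (4.23) is the largest rise.

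The labelled cell type was checked against markers. All 8 adipocyte markers were expressed, led by Fabp4 and Cidec with mean levels of 15103 and 4748 CPM. Summed adipocyte markers had medians of 37821 and 35841 CPM in 8 week CD and HFD mice, 38095 and 26995 at 20 weeks and 37402 and 25076 at 34 weeks. At these times 1, 6 and 7 of 8 were lower in HFD and 1, 1 and 0 higher. Of all genes tested 15.1%, 18.7% and 15.7% were lower and 29.8%, 38.3% and 27.5% higher. Summed macrophage markers (11 genes, led by Lyz2 and C1qb, with Adgre1 not analysed here) had medians of 553 and 1857 CPM at 8 weeks, 1149 and 6191 at 20 weeks and 3472 and 10416 at 34 weeks. Of the 11 genes 7, 8 and 9 were higher in HFD, where 29.8%, 38.3% and 27.5% of all genes tested were higher, and 0, 1 and 0 lower. The lower gene, at 20 weeks, was Cd163 (-1.35, limma adjusted p = 0.0113). At 20 and 34 weeks summed macrophage markers were higher in the diet group in which Saa3, Lcn2, Hp and Serpina3n were lower. At 8 weeks Saa3, Lcn2 and Hp did not pass. Mice within a group could differ from this, since mouse 6 of the 8 week CD group had the highest macrophage sum of its group and the highest Saa3 and Lcn2. With the macrophage markers as a covariate the difference of Saa3 was -5.70 at 20 weeks and -4.16 at 34 weeks. At 8 weeks Saa3 and Lcn2 passed as lower with it (-2.04 and -1.93, limma adjusted p = 0.0314 and 0.0496). The Orm1 call at 34 weeks was lost with it (-0.56, limma adjusted p = 0.221), as were the Orm1 calls on HFD from 8 to 20 weeks (-0.59, adjusted p = 0.281) and 8 to 34 weeks (-0.52, adjusted p = 0.324). With the adipocyte markers as a covariate, a choice made after the data were seen, 0 of the 5 genes passed at 34 weeks (limma adjusted p = 0.093 to 0.915). There Saa3 was -3.23 and Lcn2 -2.73, larger in size than without the covariate, whereas Hp was -0.32, Serpina3n -0.23 and Orm1 0.083. At 20 weeks the Hp call was lost (adjusted p = 0.115) and Orm1 passed as higher (0.67, adjusted p = 0.0329).

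Markers of cell types beyond these were checked as well. Summed neutrophil markers, relevant because neutrophils also make Lcn2, lay between 4.45 and 49.4 CPM in all mice, with medians of 13.7 in CD and 18.9 in HFD mice at 20 weeks, and Ly6g was at 0 in every mouse. Of 10 hepatocyte markers 8 never reached 1 CPM and Cyp3a11 was at 0, while Alb, with a mean level of 11.04 CPM, took nearly all of the sum. Summed hepatocyte markers had medians of 19.0 in CD and 3.26 CPM in HFD mice at 20 weeks, so this sum, in effect Alb, was lower in HFD as the amyloid genes were. Serpina1a, the next highest marker, went the other way at a low level, with medians of 0.259 and 0.652 CPM. The list thus did not move as a set. Mesothelial markers summed to between 8.28 and 95.3 CPM and epididymal markers to at most 8.63 CPM, with Defb21 at 0. Progenitor and fibroblast markers (led by Col3a1 and Dcn) and endothelial markers (led by Cdh5 and Pecam1) were higher in HFD for 5 and 8 of 8 tested at 8 weeks, 8 and 7 at 20 weeks and 4 and 7 at 34 weeks. Of all genes tested 29.8%, 38.3% and 27.5% were higher at these times. Summed progenitor and fibroblast markers had medians of 469 and 812 CPM in 8 week CD and HFD mice, 364 and 1540 at 20 weeks and 543 and 841 at 34 weeks, and endothelial sums lay between 29.3 and 465 CPM. The part of these cell types in the diet differences was not tested.

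**Figure D5:**
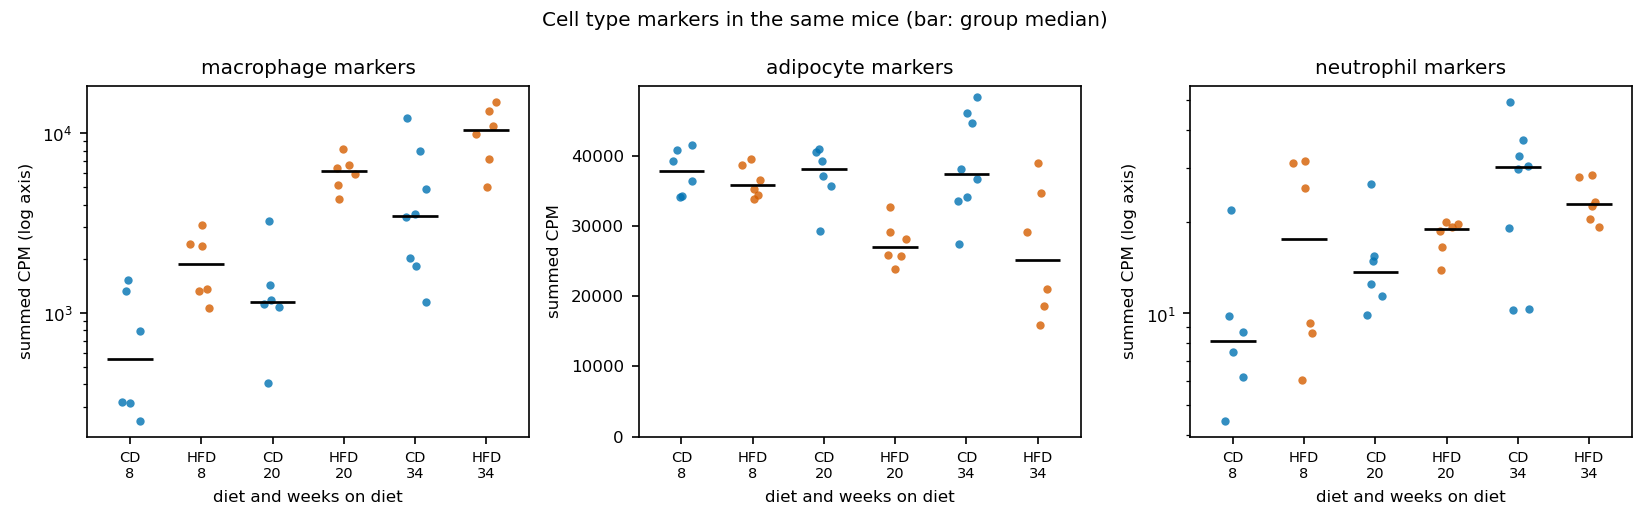
Summed CPM of macrophage, adipocyte and neutrophil markers in each mouse by diet and weeks on diet (log axes for macrophages and neutrophils), with CD in blue, HFD in orange and a bar at the group median. Macrophage sums are higher in HFD at each time, from a median of 553 in 8 week CD to 10416 CPM in 34 week HFD mice, and adipocyte sums are lower in HFD at 20 and 34 weeks.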

How the data were processed

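Per the labels and the methods, the authors prepared TruSeq stranded mRNA libraries, aligned reads to mm10 with STAR and counted reads on the union of exons with featureCounts (STAR 2.5 and 2.5.2b and Subread 1.5.1 in the submitters' processing notes). Whether counting used strand is not given in the sources used here. The deposited values are CPM for 38 mice, in which the authors had merged the 3 technical replicates of each mouse (114 labelled samples). TMM factors are stated, but each mouse sums to 1000000, so none is visible. All values were whole reads within 0.1 reads (100% of values), and edgeR 4.0.16 was run on these reads as an alternative. The reads carry no molecular identifiers, and their number limits precision for counting error only.

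Values were taken as log2(CPM + 1), and 10343 genes with a mean above 2.0 were fitted with limma 3.58.1 (R 4.3.3, mean-variance trend, 6 groups, 32 residual degrees of freedom, two-sided, Benjamini-Hochberg over all genes tested). Fold changes on this scale understate those of low genes. The 3 members below this filter were compared by exact permutation tests, unadjusted. The scripts were checked on simulated data. All 103 pairs of mice within groups differed beyond sampling noise (lowest chi-square over its degrees of freedom 10.6).

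Besides the members, the genes named are the 3 tested genes most like each member, with predicted genes passed over. Also named are the 4 of each list with the largest called change and the 2 highest markers of each cell type. The members and lists were chosen with earlier results of these data known. Alternatives were the pseudocount, the filter, size factors, TMM, separate fits, array weights, edgeR, marker covariates, mouse numbers as a block and each mouse left out.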

Additional observations from a re-analysis of the deposited data

Results flagged for a closer look

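In 48 combinations of gene and group, 3 had a mouse far from the others by Dixon's test on log2(CPM + 1). There the gap to the nearest other mouse was a large part of the group's range, and chance gives about 1 in 20 such groups. The gaps below are shares of the range on this log2 scale, not of the range in CPM. Lcn2 and Saa3 in mouse 6 of the 8 week CD group were not among the 3, although their CPM stood far apart. Orm1 was lowest in mouse 5 of the 34 week CD group, at 60.9 CPM against 271 for the next (gap 0.793 of the range). Hp was highest in mouse 6 of the 8 week CD group, at 18883 CPM against 9528 (gap 0.674 of the range). Serpina3n was highest in the same mouse, at 2889 CPM against 1402 (gap 0.797 of the range). The diet difference of Orm1 changed between 8 and 34 weeks by -2.26 on the log2 scale by the interaction term of limma (adjusted p = 0.000344).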

How the results depend on the processing

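The count of the 5 tested genes that passed moved as follows. With array weights it was 3 for diet at 34 weeks (reported 5), 1 for CD from 8 to 34 weeks (reported 2), and 4, 3 and 1 for the change of the diet difference from 8 to 20, 8 to 34 and 20 to 34 weeks (reported 0, 1 and 0). With the adipocyte covariate it was 0 for diet at 34 weeks, 0 for HFD from 8 to 20 weeks (reported 4) and 1 for HFD from 8 to 34 weeks (reported 2), and with the macrophage covariate 4 for diet at 8 weeks (reported 2) and 1 for the change from 8 to 20 weeks. Fitting each time separately gave 2 at 34 weeks, and no filter gave 1 for CD from 8 to 34 weeks and 2 for HFD from 8 to 20 weeks. Mouse numbers did not pair the mice (correlations between same-numbered mice from -0.509 to 0.529), and with the numbers as a block 3 genes passed at 34 weeks. The cause was not tested for any of these.

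Signs turned as follows. With array weights the 8 week diet difference was 0.36 for Lcn2 and 0.76 for Saa3, the change on CD from 8 to 34 weeks 0.0012 for Hp and 0.11 for Saa3, the change of the diet difference -0.25 for Serpina3n (8 to 34 weeks) and -0.17 for Lcn2 (20 to 34 weeks). The 20 week diet difference of Orm1 was -0.0030 with size factors, -0.030 with TMM and -0.028 and -0.049 with edgeR on filtered and on all genes. In the same order edgeR gave Lcn2 -2.340 and -2.342 on CD from 8 to 20 weeks, -1.69 and -1.72 on CD from 8 to 34 weeks, and 0.28 and 0.26, 0.067 and 0.091, and -0.21 and -0.17 for the change of the diet difference from 8 to 20, 8 to 34 and 20 to 34 weeks, and Saa3 -0.891 and -0.892 on CD from 8 to 20 weeks. With the macrophage covariate Lcn2 was -0.81 and Saa3 -0.31 on CD from 8 to 20 weeks and Lcn2 -1.78 from 8 to 34 weeks, and with the mesothelial covariate Lcn2 was -0.082 from 8 to 20 weeks. With the adipocyte covariate Orm1 was 0.083 for diet at 34 weeks and 0.089 for HFD from 8 to 34 weeks, Lcn2 -0.042 and Serpina3n 0.011 on CD from 8 to 20 weeks, and the change of the diet difference 0.16 for Hp (8 to 34 weeks) and -0.18 for Lcn2 (20 to 34 weeks).

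Leaving out each mouse in turn, the counts ranged from 1 to 2, 3 to 4 and 2 to 5 for diet at 8, 20 and 34 weeks, 0 to 0 and 1 to 2 on CD from 8 to 20 and 34 weeks, 0 to 5 and 2 to 3 on HFD, and 0 to 1, 1 to 3 and 0 to 1 for the changes of the diet difference. Differences that changed sign ranged from -1.11 to 0.42 for Lcn2 and -0.97 to 0.50 for Saa3 (diet at 8 weeks), -0.44 to 1.10 for Lcn2 and -0.31 to 0.072 for Serpina3n (CD from 8 to 20 weeks), -0.19 to 1.35 for Lcn2 and -0.85 to 0.61 for Saa3 (CD from 8 to 34 weeks), -0.14 to 0.20 for Serpina3n (change of the diet difference, 8 to 34 weeks), and -0.076 to 0.28 for Hp and -0.40 to 0.28 for Lcn2 (20 to 34 weeks). Without 1 mouse 1891 values kept direction and side of the threshold, 32 changed sign, 84 lost a call and 7 gained one. Many of these left out a mouse of a group outside the comparison, where the difference itself could not change. Their number is thus no measure of stability. Under the other alternatives 504 values kept both, 32 changed sign, 34 lost a call and 20 gained one. The array weights and the adipocyte covariate were among the settings that moved most counts. Depth limits Saa1 and Saa2 most, which had as few as 1 read in an HFD mouse.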
